A study of Mus musculus with 8 samples.

Results

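Lysosomal genes of subcutaneous melanomas were compared between mice on a normal diet and mice on a high cholesterol diet. The set holds 35 genes, chosen by symbol for their known role, with earlier results of these data known. It comprises 15 hydrolases (8 proteases and 7 glycosidases) and the saposin precursor gene Psap. The others are 4 genes of membrane proteins and 15 genes of the vacuolar proton pump, the V-ATPase. All 35 were found by Ensembl identifier among the 34745 genes listed, and all 35 passed the expression filter that left 13186 genes for testing. The tumours grew from B16F10, a mouse melanoma cell line kept in DMEM with 10% FBS before subcutaneous transfer into the strain C57BL/6J. Of the tumours, 4 came from hosts on normal diet (ND 1 to ND 4) and 4 from hosts on high cholesterol diet (HCD 1 to HCD 4). Both groups share the cell line, the host strain and the site of injection, and the sources used here do not give the age and sex of the mice, the cholesterol content or the time on the diet. Nothing in the labels ties each sample to its own mouse, so the p-values reflect sample-to-sample spread alone, which may be technical. B16F10 is a single established line, and its tumours also hold cells of the host, so in these bulk samples fewer cells of a type and less RNA per cell cannot be told apart.

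The lysosome is the acidic compartment in which cells break down proteins, glycans and lipids taken up from outside or delivered by autophagy. Its soluble hydrolases are sorted there by mannose 6-phosphate receptors, and its lumen is kept acidic by the V-ATPase, in which a cytosolic V1 sector splits ATP and a membrane V0 sector moves protons. Cholesterol esters carried in by lipoproteins are hydrolysed in this compartment, and the free cholesterol leaves it through the transporters NPC2 and NPC1. In melanocytes the same machinery has a further use, because melanosomes are lysosome-related organelles. Many lysosomal genes carry a promoter element, called CLEAR, that is bound by the transcription factors TFEB, TFE3 and MITF, the last of which is the lineage factor of melanocytes.

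Total counts were 14599222 to 17722093 per library, and the 35 genes took 1.11 to 1.28% of them. Each of the 35 had at least 193 counts in every library. The libraries did not differ by diet alone: ND 2, ND 3 and ND 4 had counts on 18088 to 18224 genes and the other 5 libraries on 16285 to 16745. Olfactory and vomeronasal receptor genes with counts numbered 438 to 465 in ND 2, ND 3 and ND 4 and 8 to 13 in the other 5 libraries. This feature marked ND libraries only, so it can be told apart from diet through ND 1 alone. Its part in the differences between diets was not tested. Mitochondrial genes took 13.7 to 14.7% of counts in ND and 11.4 to 12.9% in HCD, so this share did not overlap between the diets. The melanocyte identity of the tissue was clear in each library, with 8 markers summing to 29339.9 to 30889.6 CPM (TMM-normalized counts scaled to a common library total) in ND and 27073 to 31399 CPM in HCD. Host cells were present as well. The summed level of 17 macrophage markers was 338 to 598 CPM in ND and 537 to 697 CPM in HCD, lowest in ND 2, with 14 of the 16 tested markers above 0 in log2 fold change. Of these markers edgeR and limma-voom called 0 and DESeq2 called 1, with 4, 5 and 4 at an unadjusted p under 0.05. Over all 13186 genes tested, edgeR called 24 (0.182%), limma-voom 19 and DESeq2 437. At an unadjusted p under 0.05 stood 14.7% of all genes in edgeR. These counts over all genes also apply to the cell types below. The marker called by DESeq2, named after its value was seen, was the mannose receptor gene Mrc1, at 11.6, 8.68, 6.79 and 9.16 CPM in ND 1 to ND 4 and 20.9, 14.3, 24.8 and 21.3 CPM in HCD 1 to HCD 4, with all HCD values above all ND values (log2 fold change 1.17; adjusted p = 0.0506 in edgeR, 0.0632 in limma-voom and 1.04e-05 in DESeq2). None of the 17 was at 0 in all 8 libraries, and Cd163 was at 0 in ND 3. Fibroblast markers (8 genes) summed to 56.6 to 272 CPM in ND and 74.5 to 287 CPM in HCD, and endothelial markers (6 genes) to 231 to 294 and 209 to 281 CPM. The endothelial sum was mostly Vwf (198 ± 19.1 (ND) and 169 ± 38.1 CPM (HCD), log2 fold change -0.23), while the other 5 endothelial markers were above 0 in log2 fold change, with a median over the 6 of 0.28 and 0 called by edgeR, DESeq2 or limma-voom, each with 3 at an unadjusted p under 0.05. Pecam1, an adhesion molecule of endothelium, was among these, and its HCD values were all above its ND values (log2 fold change 0.34, unadjusted p = 0.00663, edgeR). Dendritic and B cell markers (9 genes, mostly Cd74 and H2-Ab1) summed to 34.96 to 305 CPM in ND and 172 to 266 CPM in HCD. Skeletal muscle markers (8 genes) ranged from 4.44 to 76.4 CPM in ND, highest in ND 2, and from 3.21 to 6.35 CPM in HCD, with all 5 tested markers below 0 in log2 fold change. Of these muscle markers edgeR and limma-voom called 0 and DESeq2 called 2 (Acta1 and Actn3), with 5, 3 and 5 at an unadjusted p under 0.05. T cell markers (8 genes) stayed at or under 16.3 CPM and neutrophil markers (7 genes, of which Mpo was at 0 in all 8 libraries) at or under 5.19 CPM.

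Levels of the 35 genes spanned a wide range, from the aspartic protease gene Ctsd at 1129 ± 61.2 CPM per kilobase of its principal transcript (mean ± SD over all 8 libraries) to Cln3, which encodes a lysosomal membrane protein defective in a childhood neurodegenerative disease, at 6.19 ± 0.946. The next highest by this measure were the carboxypeptidase gene Ctsz (551 ± 37.2) and Atp6v1e1, a stalk subunit of V1 (401 ± 50.4). Lamp1, a heavily glycosylated protein of the limiting membrane (393 ± 12.7), and Atp6v0c, the proteolipid that forms most of the proton-carrying ring (352 ± 60.0), followed. The values of Atp6v1e1, Lamp1 and Atp6v0c overlapped between libraries, so their order among themselves is not resolved. Psap (334 ± 26.35) and Atp6v1f (283.5 ± 20.47) came after them and overlapped Atp6v1e1 and Atp6v0c as well. Ctsd lay above every other gene of the set in all 8 libraries.

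Which class stood higher turned on the length used. In the deposited FPKM the median was 53.6 FPKM over the hydrolases and 38.0 FPKM over the V-ATPase genes. For 72.3% of genes the length behind these values matched, within 1%, a sum that adds up overlapping exons of different transcripts. Per kilobase of the principal transcript, a length chosen after seeing the data, the medians were 76.2 CPM for hydrolases and 89.4 CPM for V-ATPase genes. Atp6v0b, the second proteolipid of the ring, shows the size of this effect: its deposited length was 4.99 times its principal transcript, and it ranked 21 of 35 in FPKM (34.5) and 11 per kilobase of that transcript (173 CPM). Atp6v1d moved the other way, as its deposited length was 0.383 times its principal transcript. It ranked 10 in FPKM (104.5) and 29 per kilobase of that transcript (40.05 CPM). Ctsd and Ctsz ranked 1 and 2 and Cln3 ranked 35 by either measure. Atp6v1e1 and Atp6v0c ranked 3 and 5 per kilobase of the principal transcript but 13 and 14 in FPKM.

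**Figure D1:**
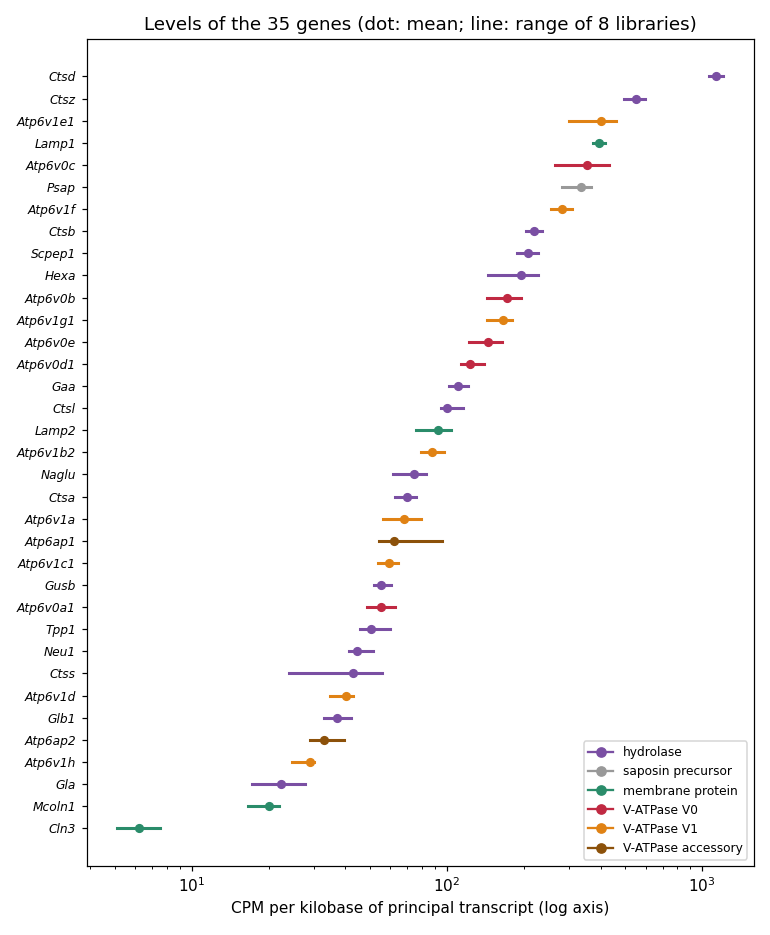
Level of each of the 35 genes in CPM per kilobase of its principal transcript, on a log axis, coloured by role; dots are means over the 8 libraries and lines run from the lowest to the highest library. Ctsd lies at the top and Cln3 at the bottom, and hydrolases and V-ATPase subunits are interleaved between them.

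Of the 35 genes 0 were called at an adjusted p under 0.05 (edgeR quasi-likelihood test, Benjamini-Hochberg adjusted over all 13186 genes), against 24 of all genes, or 0.182%. DESeq2 and limma-voom also called 0 of the 35. At an unadjusted p under 0.05 stood 1 member by each of these tools, while 14.7% of all genes did so in edgeR. The ND and HCD values did not overlap for 1 of the 35 genes (2.86%), against 9.67% of all genes. Log2 fold changes (HCD over ND) ran from -0.19 (Atp6v0a1) to 0.23 (Ctss), with 17 above and 18 below 0 and a median of -0.010, beside 0.0049 over all genes tested. The 95% interval of the log2 fold change, taken gene by gene without adjustment, lay between -0.5 and 0.5 for 33 of the 35 genes. The exceptions were Ctss and Atp6ap1, whose upper ends were 0.69 and 0.57. A change of 1.5-fold lay outside the interval of 34 genes, all but Ctss. The median coefficient of variation of the 35 genes within groups was 6.08% in ND and 7.90% in HCD. It was 9.21% and 8.44% for the 7897 genes whose mean CPM lay in the range of the set (15.4 to 2402). Those genes were not matched to the set by level within that range.

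**Figure D2:**
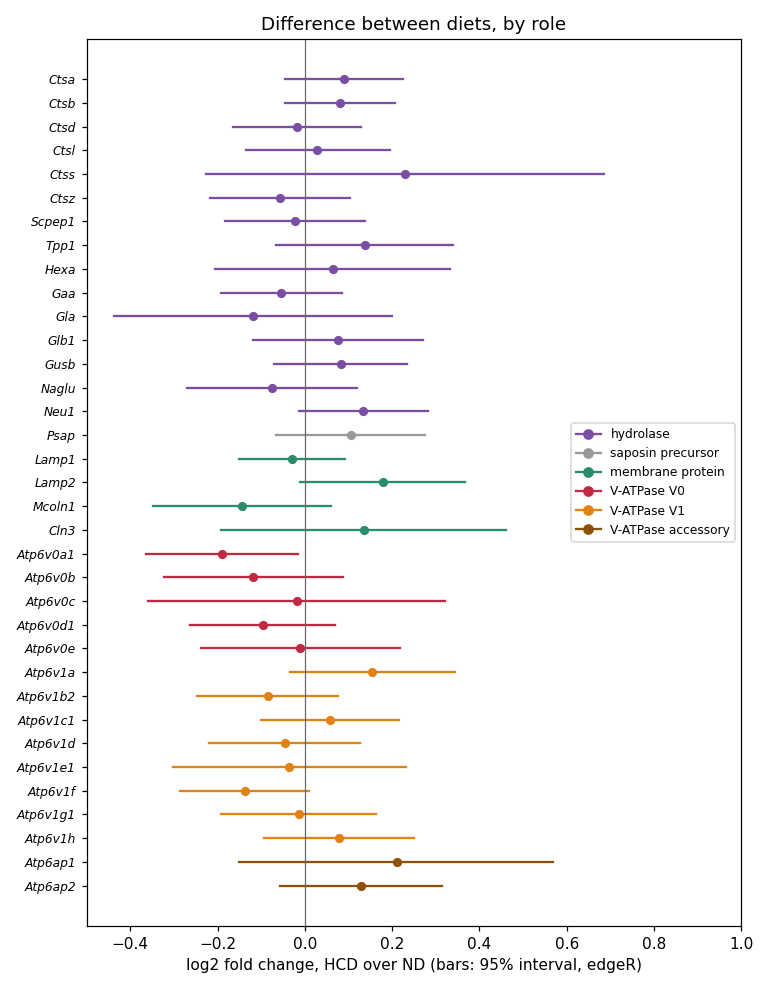
Log2 fold change of each of the 35 genes, HCD over ND, with its 95% interval from edgeR (n = 4 libraries per group), ordered and coloured by role. Among the 35 intervals that of Atp6v0a1 is the only one that leaves out 0, and that of Ctss is the widest, from -0.23 to 0.69.

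Among the 15 hydrolases 9 had a log2 fold change above 0 and 6 below, with a median of 0.064 and 0 called by edgeR, DESeq2 or limma-voom, each with 0 at an unadjusted p under 0.05. Neu1, the sialidase that trims sialic acids from glycans, was the gene whose groups did not overlap (ENSMUSG00000007038, chromosome 17, 34931253 to 34935953, mm10). It was at 108, 105, 102 and 104 CPM in ND 1 to ND 4 and 109, 112, 127 and 113 CPM in HCD 1 to HCD 4. Each HCD value was above each ND value, though HCD 1 exceeded ND 1 by little, and the test was not passed (log2 fold change 0.13, 95% interval -0.01 to 0.28, adjusted p = 0.389). Inside the lysosome NEU1 is held in a complex with the protective carboxypeptidase cathepsin A and beta-galactosidase. Ctsa, the gene of the former, was at 254, 257, 242 and 228 CPM in ND 1 to ND 4 and 275, 259, 254 and 256 CPM in HCD 1 to HCD 4. The groups met at the top of ND and the bottom of HCD, with a log2 fold change 0.09, 95% interval -0.05 to 0.23, adjusted p = 0.552. Glb1, the gene of the latter, was at 86.3 ± 6.54 (ND) and 91.0 ± 8.69 CPM (HCD) (mean ± SD, n = 4 a group, as for the means below), with 0.08 as its log2 fold change. The 3 genes of the complex thus had log2 fold changes of 0.13, 0.09 and 0.08, none of which passed. Exons of Ctsa overlap those of Neurl2 and Pltp on the other strand, and the sources used here do not give the strand setting used in counting.

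Ctss, the cysteine protease that trims the invariant chain in antigen-presenting cells, had the highest log2 fold change and the widest spread of the set (ENSMUSG00000038642, chromosome 3, 95526786 to 95556403). It was at 75.6, 32.5, 51.4 and 55.2 CPM in ND 1 to ND 4 and 62.5, 55.7, 71.3 and 62.2 CPM in HCD 1 to HCD 4. ND 1 held the highest value of all 8 libraries and ND 2 the lowest, so the HCD values fell inside the range of the ND group (log2 fold change 0.23, 95% interval -0.23 to 0.69, adjusted p = 0.668). The summed dendritic and B cell markers were likewise highest in ND 1 and lowest in ND 2, at 305, 34.96, 141 and 202 CPM in ND 1 to ND 4 and 266, 182, 262 and 172 CPM in HCD 1 to HCD 4. The summed macrophage markers were also lowest in ND 2 but highest in HCD 3, at 598, 338, 399 and 464 CPM in ND 1 to ND 4 and 537, 542, 697 and 560.5 CPM in HCD 1 to HCD 4. The part of these cell types in the Ctss values was not tested. A term for ND 2 to ND 4, the libraries with counts on more genes, leaves HCD compared with ND 1 alone. In that fit the log2 fold change of Ctss was -0.26. With diet as the only term it was 0.44 without ND 1 and 0.051 without ND 2.

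The abundant cathepsins had smaller log2 fold changes. Ctsd was at 2512, 2279, 2572 and 2304 CPM in ND 1 to ND 4 and 2259.5, 2325, 2565 and 2396 CPM in HCD 1 to HCD 4, and both groups covered nearly the same range (log2 fold change -0.02, 95% interval -0.17 to 0.13, adjusted p = 0.934). Ctsb, a cysteine protease, was at 1009 ± 30.3 (ND) and 1067 ± 48.0 CPM (HCD) with a log2 fold change of 0.08, and Ctsz at 809.6 ± 67.9 (ND) and 778 ± 37.8 CPM (HCD) with -0.06. Ctsl, another cysteine protease, was at 195 ± 5.60 (ND) and 199 ± 19.2 CPM (HCD), where HCD 4 stood apart at 227 CPM. The remaining peptidases were Scpep1, a serine carboxypeptidase (441 ± 35.4 (ND) and 434 ± 23.1 CPM (HCD)), and Tpp1, which removes tripeptides from the ends of proteins (170.4 ± 9.66 (ND) and 187 ± 23.2 CPM (HCD)).

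Among the glycosidases, Hexa, the alpha subunit of beta-hexosaminidase, was at 408, 290.3, 417 and 409 CPM in ND 1 to ND 4 and 352, 383, 455 and 403 CPM in HCD 1 to HCD 4. ND 2 lay far under the other 3 ND libraries, and those 3 lay within the HCD range (log2 fold change 0.06, 95% interval -0.20 to 0.33, adjusted p = 0.857). Its log2 fold change was -0.046 without ND 2 and -0.008 without HCD 3. Gla, the alpha-galactosidase that clears globosides, was at 88.0, 54.6, 67.0 and 85.8 CPM in ND 1 to ND 4 and 60.8, 71.5, 73.1 and 66.7 CPM in HCD 1 to HCD 4. Its 4 HCD values lay inside the ND range, which ND 2 opened at the low end and ND 1 at the high end (log2 fold change -0.12, 95% interval -0.44 to 0.20, adjusted p = 0.767). Gaa, which degrades glycogen, was at 409 ± 24.1 (ND) and 394 ± 15.6 CPM (HCD), and Gusb, the beta-glucuronidase, at 144 ± 3.83 (ND) and 153 ± 11.7 CPM (HCD). Naglu, an enzyme of heparan sulfate breakdown, was at 196 ± 9.43 (ND) and 186 ± 22.1 CPM (HCD). The log2 fold changes of these 3 genes were -0.05, 0.08 and -0.07. Psap, whose product is cut into the saposins that present sphingolipids to hydrolases, was at 856 ± 83.6 (ND) and 921 ± 41.0 CPM (HCD), with ND 2 lowest at 748 CPM (log2 fold change 0.10, 95% interval -0.07 to 0.28, adjusted p = 0.585).

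The 4 membrane protein genes had 2 log2 fold changes above 0 and 2 below, with 0 called by edgeR, DESeq2 or limma-voom, each with 0 at an unadjusted p under 0.05. Lamp2, a partner of LAMP1 that also serves chaperone-mediated autophagy, was at 272, 301, 363 and 309.5 CPM in ND 1 to ND 4 and 350.2, 348, 339 and 374 CPM in HCD 1 to HCD 4. The HCD values were close together and overlapped ND through ND 3 alone (log2 fold change 0.18, 95% interval -0.01 to 0.37, adjusted p = 0.373). Without ND 3 the adjusted p of Lamp2 was 0.167 (edgeR), the lowest that any of the 35 genes reached in any alternative, and it did not pass. Lamp1 was at 885 ± 29.3 (ND) and 867 ± 28.1 CPM (HCD), a log2 fold change of -0.03. Mcoln1, the calcium channel TRPML1, was at 44.9, 42.1, 42.4 and 45.3 CPM in ND 1 to ND 4 and 34.4, 42.7, 43.8 and 37.1 CPM in HCD 1 to HCD 4. HCD 1 and HCD 4 were under every ND value, and HCD 2 and HCD 3 were within the ND range (log2 fold change -0.14, 95% interval -0.35 to 0.06, adjusted p = 0.519). Cln3 was at 14.7 ± 1.59 (ND) and 16.1 ± 3.00 CPM (HCD) (log2 fold change 0.14).

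The V0 sector had log2 fold changes below 0 for each of its 5 genes, with a median of -0.097 and 0 called by edgeR, DESeq2 or limma-voom, each with 1 at an unadjusted p under 0.05. Atp6v0a1, the a subunit whose channels lead protons to the ring, had the lowest p of the set (ENSMUSG00000019302, chromosome 11, 101009452 to 101063719). It was at 249.6, 222, 251 and 216 CPM in ND 1 to ND 4 and 194, 201, 229 and 199 CPM in HCD 1 to HCD 4. HCD 1, HCD 2 and HCD 4 were under all ND values, while HCD 3 lay above ND 2 and ND 4. The difference did not pass (log2 fold change -0.19, 95% interval -0.36 to -0.02, adjusted p = 0.301, unadjusted p = 0.0353, edgeR). Its adjusted p was 0.225 to 0.505 (edgeR) when a library was left out. Atp6v0c was at 510.5, 398, 457 and 313 CPM in ND 1 to ND 4 and 344, 426, 502 and 384 CPM in HCD 1 to HCD 4. It spread over much the same range in both groups, highest in ND 1 and HCD 3 and lowest in ND 4 and HCD 1 (log2 fold change -0.02, 95% interval -0.36 to 0.32, adjusted p = 0.974), and pseudogenes named after it (Atp6v0c-ps1 and Atp6v0c-ps2) make its counts uncertain. Atp6v0b was at 179.6 ± 8.69 (ND) and 166 ± 21.9 CPM (HCD), Atp6v0d1, the subunit that couples the ring to the rotor, at 207 ± 17.9 (ND) and 194 ± 10.1 CPM (HCD), and Atp6v0e, a small membrane subunit, at 119.5 ± 14.0 (ND) and 119 ± 12.3 CPM (HCD). The signs of Atp6v0c and Atp6v0e turned when single libraries were left out, with log2 fold changes up to 0.089 and 0.050. That of Atp6v0e also turned with a term for ND 2 to ND 4, which compares HCD with ND 1 alone (0.24).

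The V1 sector had 3 genes above and 5 below 0 in log2 fold change, with a median of -0.025 and 0 called by edgeR, DESeq2 or limma-voom, each with 0 at an unadjusted p under 0.05. Atp6v1a, the catalytic subunit, was at 237, 289, 299 and 265 CPM in ND 1 to ND 4 and 302, 286, 289.9 and 335 CPM in HCD 1 to HCD 4. Each HCD value exceeded ND 1 and ND 4, and HCD 4 was the highest of all (log2 fold change 0.15, 95% interval -0.03 to 0.34, adjusted p = 0.439). Atp6v1b2, the partner of the catalytic subunit in the hexameric head, had the opposite sign, at 254 ± 19.6 (ND) and 239.7 ± 13.4 CPM (HCD) (log2 fold change -0.09, 95% interval -0.25 to 0.08, adjusted p = 0.65). Atp6v1e1 was at 493, 592, 533 and 509.8 CPM in ND 1 to ND 4 and 562, 394, 516 and 604 CPM in HCD 1 to HCD 4. HCD 2 was lowest and HCD 4 highest of the 8 libraries, so the HCD group enclosed the ND group (log2 fold change -0.04, 95% interval -0.30 to 0.23, adjusted p = 0.928). The stalk and rotor genes Atp6v1g1, Atp6v1d and Atp6v1f were at 189 ± 11.4 (ND) and 187 ± 17.1 CPM (HCD), 149 ± 7.22 (ND) and 144 ± 13.2 CPM (HCD) and 209 ± 12.3 (ND) and 189.8 ± 9.60 CPM (HCD). Of these Atp6v1f had the largest log2 fold change in size, -0.14 (adjusted p = 0.379). Atp6v1c1 and Atp6v1h, subunits at the joint between the sectors that take part in their reversible assembly, were at 121 ± 3.87 (ND) and 126 ± 9.92 CPM (HCD) and at 57.7 ± 4.95 (ND) and 60.9 ± 0.626 CPM (HCD).

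Both accessory genes were above 0 in log2 fold change, with 0 called by edgeR, DESeq2 or limma-voom, each with 0 at an unadjusted p under 0.05. Atp6ap1, which encodes an assembly factor that stays in the pump, was at 135, 124, 127 and 118 CPM in ND 1 to ND 4 and 209, 124, 132 and 118 CPM in HCD 1 to HCD 4 (ENSMUSG00000019087, chromosome X, 74297097 to 74304721). HCD 1 alone stood high, and the other 7 libraries lay between 118 and 135 CPM (log2 fold change 0.21, 95% interval -0.15 to 0.57, adjusted p = 0.611). Without HCD 1 its log2 fold change was -0.017. Atp6ap2, known as the prorenin receptor, was at 67.5, 76.7, 75.6 and 74.1 CPM in ND 1 to ND 4 and 78.9, 75.0, 75.6 and 91.7 CPM in HCD 1 to HCD 4, where HCD 4 was highest and ND 1 lowest (log2 fold change 0.13, 95% interval -0.06 to 0.31, adjusted p = 0.528).

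Hydrolases and V-ATPase genes were also set against each other within each library. A library's list value averages, over the genes of a list, the deviation of log2 CPM from each gene's own mean. For the hydrolases it was 0.072, -0.156, 0.017 and -0.019 in ND 1 to ND 4 and -0.024, -0.036, 0.083 and 0.063 in HCD 1 to HCD 4. For the 15 V-ATPase genes it was 0.004, -0.026, 0.074 and -0.029 in ND and -0.037, -0.052, 0.065 and 0.002 in HCD. ND 2 was the lowest library for hydrolases and not for the pump, and the groups overlapped for both lists. The hydrolase value minus the V-ATPase value was -0.027 ± 0.085 in ND and 0.027 ± 0.023 in HCD (SD, n = 4 each), so the means differed by less than the spread in ND. The median log2 fold change was 0.064 for hydrolases and -0.019 for V-ATPase genes, beside 0.0049 over all genes. With the term for ND 2 to ND 4, which compares HCD with ND 1 alone, these medians had the opposite sign, at -0.035 and 0.039. The V-ATPase median was also above 0 without ND 3 (0.025) and without HCD 1 (0.008).

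**Figure D3:**
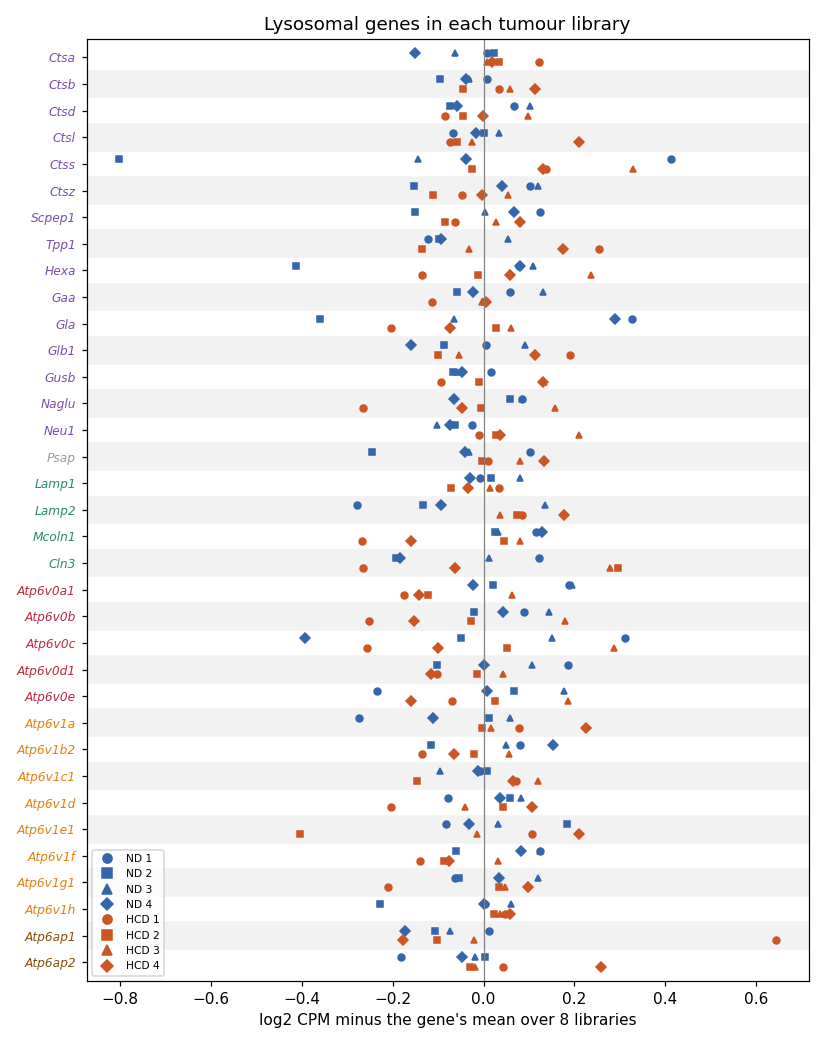
Each of the 35 genes in each library, as log2 CPM minus the mean of the gene over all 8 libraries; blue symbols are ND and orange symbols HCD libraries, the shape gives the library number, and gene names are coloured by role. Blue and orange symbols intermingle in nearly every row, Neu1 being the 1 gene whose groups are apart, while Ctss in ND 2 and Atp6ap1 in HCD 1 lie farthest from 0.

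The same few libraries tended to be the extremes of their group. In the ND group ND 3 held the highest value for 18 of the 35 genes and ND 2 the lowest for 17. In the HCD group HCD 3 was highest for 17 genes and HCD 1 lowest for 17. Hydrolases and V-ATPase genes both took part: HCD 3 was the highest HCD library for 8 of 15 hydrolases and 8 of 15 V-ATPase genes, and HCD 1 was the lowest for 8 and 7. ND 2, which held the lowest macrophage sum and the highest muscle sum of the 8 libraries, was lowest in ND for 9 hydrolases and 5 V-ATPase genes, and the part of these cell types in this order was not tested.

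Lysosomal genes outside the set were examined by list. Of 95 further genes in 6 lists, 90 were tested and 55 had log2 fold changes above 0. At an unadjusted p under 0.05 stood 7 (7.78%), beside 14.7% of all genes tested (edgeR). The ND and HCD values did not overlap for 8 of the 90, beside 9.67% of all genes tested. The 1 gene called was Mitf (edgeR, DESeq2 and limma-voom). In the list of other hydrolases 18 of 32 genes were above 0, with a median of 0.019 and 4 at an unadjusted p under 0.05, all above 0 (3 by DESeq2 and 4 by limma-voom). The lysosomal phospholipase gene Pla2g15 was at 13.4, 8.14, 12.3 and 13.2 CPM in ND 1 to ND 4 and 15.3, 15.7, 18.9 and 16.3 CPM in HCD 1 to HCD 4. Lgmn, the asparaginyl endopeptidase legumain, was at 198, 161, 190.3 and 179 CPM in ND 1 to ND 4 and 216, 212, 214 and 203 CPM in HCD 1 to HCD 4. Ctsc, a dipeptidyl peptidase that activates granule proteases, was at 72.5, 51.4, 73.2 and 70.0 CPM in ND 1 to ND 4 and 76.6, 76.1, 85.9 and 97.3 CPM in HCD 1 to HCD 4. These 3 genes were named for the smallest p in the list, which favours groups that lie apart. For each of them all HCD values were above all ND values, ND 2 was the lowest library, and the call was not reached (adjusted p = 0.207, 0.213 and 0.264, log2 fold changes 0.49, 0.22 and 0.33). All of these are also expressed in macrophages, whose marker sum was lowest in ND 2 as well, and the part of those cells was not tested.

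Other lysosomal membrane and lipid transport genes had 10 of 19 tested members above 0, a median of 0.003 and 0 called (edgeR, DESeq2 and limma-voom, each with 2 at an unadjusted p under 0.05). Ctns, the cystine exporter, was at 22.6, 23.3, 24.3 and 24.6 CPM in ND 1 to ND 4 and 26.9, 28.7, 27.9 and 28.1 CPM in HCD 1 to HCD 4. Its groups were tight and apart, with HCD above ND, but did not pass (log2 fold change 0.23, 95% interval 0.06 to 0.41, adjusted p = 0.207). Npc2, which hands cholesterol from the lumen to the exporter NPC1, was at 419, 367, 402 and 402 CPM in ND 1 to ND 4 and 339.7, 349, 374 and 368 CPM in HCD 1 to HCD 4. HCD 1 and HCD 2 were under every ND value, and HCD 3 and HCD 4 were just above ND 2, the lowest ND library (log2 fold change -0.15, 95% interval -0.29 to -0.01, adjusted p = 0.299). Mfsd8, a chloride channel gene of the membrane, was at 3.94 ± 1.07 (ND) and 5.18 ± 0.764 CPM (HCD) (log2 fold change 0.40). The list of mannose 6-phosphate receptors, sorting and retromer genes had 7 of 9 members above 0, a median of 0.040 and 0 called (edgeR, DESeq2 and limma-voom each had 0 genes with an unadjusted p below 0.05). The members named from it were the receptors themselves, M6pr (log2 fold change 0.14) and Igf2r (log2 fold change 0.09), and Nagpa, which uncovers the phosphate tag (log2 fold change 0.23).

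Some subunits of the pump exist in several forms. Per kilobase of principal transcript, Atp6v0a1 was at 54.9 CPM and Tcirg1, the a3 form known from osteoclasts and named here after its value was seen, at 54.5 ± 8.07, so these a subunit forms did not differ beyond their spread. Atp6v0a2 followed at 13.8 and Atp6v0a4, the kidney form, at 0.593. Atp6v0e2 was at 96.8 ± 7.99, under Atp6v0e at 145 ± 14.9. The order of these e subunit forms turned on the length used. In the deposited FPKM Atp6v0e2 was the higher, at 62.8 (ND) and 59.2 (HCD). Atp6v0e was at 33.0 (ND) and 33.8 FPKM (HCD). Of the 10 further subunit forms 7 passed the filter, with 5 above 0, a median of 0.120 and 0 called (edgeR, DESeq2 and limma-voom each had 0 genes with an unadjusted p below 0.05).

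Among 8 genes for assembly of the pump, 6 were above 0, with 0 called (edgeR and DESeq2 with 0, limma-voom with 1 at an unadjusted p under 0.05). Vma21, a chaperone that assembles V0 in the endoplasmic reticulum, had the largest difference of any pump gene here. It was at 19.1, 78.0, 17.5 and 74.9 CPM in ND 1 to ND 4 and 85.3, 86.7, 86.7 and 97.6 CPM in HCD 1 to HCD 4. The HCD values lay close together above every ND value, while the ND group was split, with ND 2 and ND 4 near the HCD level and ND 1 and ND 3 far below it. Its log2 fold change was 0.91 (95% interval -0.07 to 1.90, adjusted p = 0.379, edgeR). It was 0.65 without ND 1 and 0.64 without ND 3. With a term for ND 2 to ND 4 it was 2.22, which compares HCD with the low library ND 1 alone. The split did not follow the number of genes with counts, which sets ND 1 apart from the other ND libraries. Dmxl1, a subunit of the complex that reassembles V1 with V0, was at 38.0 ± 4.90 (ND) and 44.0 ± 2.59 CPM (HCD) (log2 fold change 0.21), and Tmem199, another V0 assembly factor, at 43.3 ± 1.05 (ND) and 47.2 ± 3.28 CPM (HCD) (log2 fold change 0.12).

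**Figure D4:**
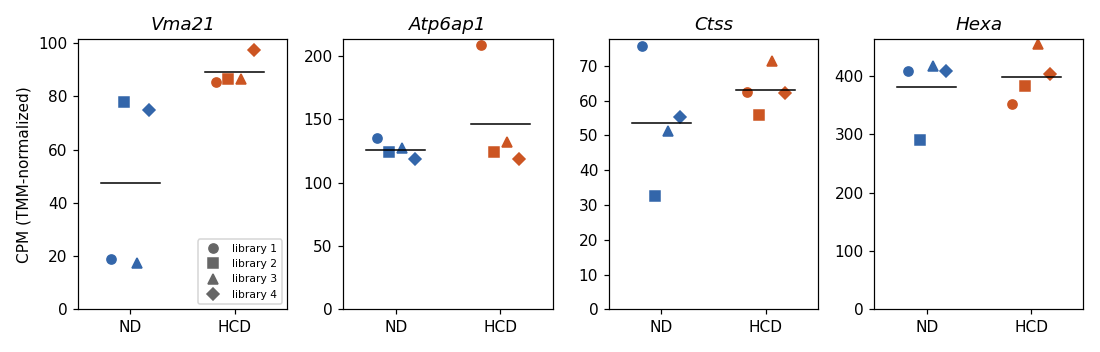
TMM-normalized CPM of Vma21, Atp6ap1, Ctss and Hexa in each library; horizontal lines are group means, the shape gives the library number and the axes start at 0. Vma21 is low in ND 1 and ND 3, Atp6ap1 is high in HCD 1, and Ctss and Hexa are lowest in ND 2.

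Of the transcription factors that act on lysosomal genes, Mitf rose in HCD. It was at 261, 205, 248 and 287 CPM in ND 1 to ND 4 and 516, 391, 444 and 459 CPM in HCD 1 to HCD 4. All HCD values exceeded all ND values (log2 fold change 0.85, 95% interval 0.60 to 1.10, adjusted p = 0.0459, edgeR). The call was lost when any library but ND 2 was left out (adjusted p = 0.0581 to 0.138 in these 7 edgeR fits, and 0.0311 without ND 2). The log2 fold change lay between 0.769 and 0.925 in those fits. With a term for ND 2 to ND 4 it was 0.792, a comparison with ND 1 alone that cannot show whether the call holds. The mitochondrial share of counts also separated the diets, as given above, and its part in the Mitf values was not tested. Tfeb was at 34.7, 22.7, 23.5 and 32.6 CPM in ND 1 to ND 4 and 25.7, 25.8, 25.3 and 23.2 CPM in HCD 1 to HCD 4, high in ND 1 and ND 4 (log2 fold change -0.18, 95% interval -0.50 to 0.14, adjusted p = 0.614). Tfe3 was at 74.3 ± 6.59 (ND) and 69.5 ± 4.05 CPM (HCD) (log2 fold change -0.10, 95% interval -0.28 to 0.08, adjusted p = 0.638). Tfec, the form of myeloid cells, did not pass the filter and was at or under 1.08 CPM in every library. Among genes that hold TFEB and TFE3 in the cytoplasm through the mTORC1 complex, Flcn, a GTPase activator of the Rag proteins, was at 32.0 ± 4.33 (ND) and 27.0 ± 4.54 CPM (HCD) (log2 fold change -0.24), and Lamtor3, a subunit of the Ragulator scaffold, at 31.8 ± 0.851 (ND) and 35.5 ± 2.90 CPM (HCD) (log2 fold change 0.16). The whole list had 9 of 15 tested genes above 0, a median of 0.010 and Mitf as its 1 called gene (edgeR, DESeq2 and limma-voom).

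**Figure D5:**
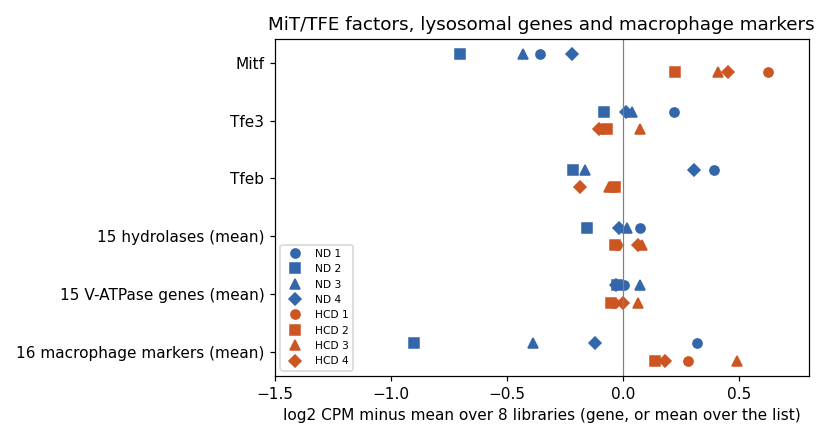
Log2 CPM of Mitf, Tfe3 and Tfeb minus the mean of each over 8 libraries, and the mean of the same quantity over 15 hydrolases, 15 V-ATPase genes and 16 macrophage markers; blue symbols are ND and orange symbols HCD libraries. Mitf is the row in which the groups are apart, the hydrolase and V-ATPase rows lie close to 0, and the macrophage row is lowest in ND 2.

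Promoters of the set were searched for TCACGTGA, the core of the CLEAR element, which is its own reverse complement and so is found on both strands in 1 search. RefSeq (GRCm38.p6) gave windows from 250 bases before to 50 bases after an annotated start for 30 of the 35 genes; Ctsb, Atp6v1b2, Atp6v1c1, Atp6v1g1 and Atp6v1h had none in the table. The core was present for 8 of the 30 genes: 3 hydrolases (Ctsa, Gla and Ctsd), 2 membrane protein genes (Mcoln1 and Cln3) and 3 pump genes (Atp6v1a, Atp6v0d1 and Atp6v0e). By window it was in 8 of 35 (22.9%), beside 1.78% of the windows of genes tested and 0.974% of all windows. The shorter E-box CACGTG, which lies within the core, was in 40.0% of the members' windows, 9.91% of those of genes tested and 7.15% of all. The element is known from lysosomal genes, and the set was chosen for that role, so its higher share here is no independent result. A match is a description of the letters and not of binding. Stretches of 80 bases are shown for the 6 genes with the smallest p, 5′ to 3′ on the strand of the gene, with each copy of the core in capitals, to show the element by which the factors named above are known to bind.
Atp6v1a: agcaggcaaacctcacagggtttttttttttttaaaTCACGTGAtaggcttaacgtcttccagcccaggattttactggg
Mcoln1: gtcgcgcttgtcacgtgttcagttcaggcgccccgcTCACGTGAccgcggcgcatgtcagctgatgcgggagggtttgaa
Ctsa: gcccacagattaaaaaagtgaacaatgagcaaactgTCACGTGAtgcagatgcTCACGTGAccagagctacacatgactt
Atp6v0d1: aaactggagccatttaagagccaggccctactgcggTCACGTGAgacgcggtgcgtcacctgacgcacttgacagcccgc
Cln3: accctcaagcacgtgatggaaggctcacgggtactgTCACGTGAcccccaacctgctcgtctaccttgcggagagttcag
Gla: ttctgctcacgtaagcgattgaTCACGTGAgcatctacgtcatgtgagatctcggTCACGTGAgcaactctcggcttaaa

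The stretches lie at chr16:44139348-44139427 (- strand) for Atp6v1a, chr8:3500437-3500516 (+ strand) for Mcoln1, chr2:164833724-164833803 (+ strand) for Ctsa, chr8:105566025-105566104 (- strand) for Atp6v0d1, chr7:126583315-126583394 (- strand) for Cln3 and chrX:134601176-134601255 (- strand) for Gla. The first copy of the core begins 4, 13 and 46 bases before the annotated start in Atp6v0d1, Ctsa and Mcoln1, and 122, 132 and 228 bases before it in Cln3, Atp6v1a and Gla. Ctsa and Gla each carry 2 copies. For Ctsa and Cln3 the core belongs to 1 of the 2 starts in the table. The 8 genes with the core had log2 fold changes from -0.14 to 0.16, with 3 above 0 and a median of -0.014, and the 22 genes without it from -0.19 to 0.23, with 11 above 0 and a median of 0.005. Both ranges include 0 and overlap almost fully, and 0 genes of either kind were called (edgeR, DESeq2 and limma-voom; at an unadjusted p under 0.05, Atp6v0a1 alone).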

How the data were processed

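Paired-end libraries were made with the TruSeq RNA kit from column-purified total RNA, per the labels' protocols. CASAVA 1.8, TopHat2 2.0.9, HTSeq, edgeR and the build mm10 are named, without role or order, in the submitters' processing notes; the sources used here do not give the annotation release or strand setting. Each library has counts per Ensembl gene, deposited as whole numbers with no normalization, and FPKM, per the file headers. The length behind the deposited FPKM, recovered from the values, matched the sum of all distinct annotated exons of GENCODE M21 within 1% for 72.3% of genes, so bases shared by overlapping exons count more than once; it was 0.383 to 5.67 times (median 1.51) the principal transcript of the 35 genes. Levels of different genes were therefore also given per kilobase of the longest APPRIS principal transcript with a RefSeq match.

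Symbols came from the Ensembl identifiers (34267 of 34745 matched). Counts were tested with the quasi-likelihood test of edgeR 4.0.16 under R 4.3.3 (TMM, minimum count 10, minimum total 15, diet as the only term, 8 libraries, Benjamini-Hochberg over all genes tested); the fit was tested on simulated data. Standard errors were derived from each gene's F statistic, and intervals use the t distribution with the fit's degrees of freedom. Alternatives were DESeq2 1.42.0, limma-voom (limma 3.58.1), other size factors, no filter, robust dispersion, the replicate number as a block and leaving out each library. Libraries of a group differed by 14.5 to 37.6 times the noise of sampling, as chi-square over its degrees of freedom, and each counted as 1 sample. Of the 35 genes 13 share exon positions with another gene, 11 of them on the other strand. The members and lists were chosen with earlier results of these data known. All 35 members are named, with up to 3 genes of smallest p from each further list (200 symbols in all lists, 1 unmatched) and the MiT/TFE factors; Tcirg1, Sgsh, Vps26a and the single cell-type markers named were added after their values were seen.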

Additional observations from a re-analysis of the deposited data

Results flagged for a closer look

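A library was noted where its gap to the nearest other library of its group took up a larger part of the group's range than Dixon's 95% critical value for 4 samples allows. Of 112 groups looked at (56 genes in 2 diets), 8 had such a library, where chance gives about 5.6. In ND 2, Hexa was low at 290.3 CPM, against 408 to 417 CPM in the other ND libraries, as was Ctsc at 51.4 CPM against 70.0 to 73.2. Igf2r in ND 2 was at 204 CPM against 197 to 198, a small step in a tight group. Tpp1 was at 185 CPM in ND 3 against 164 to 167. In HCD 1, Atp6ap1 was high at 209 CPM against 118 to 132, and Gaa was low at 371 CPM against 400.4 to 403. In HCD 4, Ctsl was high at 227 CPM against 186 to 193, and Vma21 at 97.6 CPM against 85.3 to 86.7.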

How the results depend on the processing

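The count of 0 called among the 35 genes held in all 16 alternatives, with lowest adjusted p-values of 0.167 to 0.505 per alternative, and 22 of the 35 genes kept their sign in all of them. The number of called genes among all genes was 24, and was 93 with no expression filter, 437 with DESeq2, 50 with robust dispersion, 5 with the term for ND 2 to ND 4 (added after seeing the data) and 0 to 12 when a library was left out. The called gene of the further lysosomal lists, Mitf, was lost with that term (0 called) and in all fits without 1 library but that without ND 2 (0 to 1). The labels number the libraries 1 to 4 in both groups, but same-numbered libraries correlated at only 0.0249, -0.0113, -0.0676 and 0.107 in their deviations from the group means, and ND 4 alone correlated best with its own number. With the replicate number as a block the pairing called 0 genes over all and 0 in the further lists, Mitf being at an adjusted p of 0.106 (edgeR) with a log2 fold change of 0.857. The term for ND 2 to ND 4, added after seeing the data, leaves HCD compared with ND 1 alone, so it cannot show a difference from the ND group. With the term, the median log2 fold change was -0.035 for hydrolases and 0.039 for V-ATPase genes. Signs turned for Ctss (-0.264), Hexa (-0.035), Psap (-0.047), Cln3 (-0.042), Atp6v0e (0.237), Atp6v1d (0.058), Atp6v1e1 (0.076) and Atp6v1g1 (0.060). When libraries were left out, signs turned for Ctsd -0.057 to 0.013, Ctsl -0.041 to 0.056, Scpep1 -0.074 to 0.015, Hexa -0.046 to 0.117, Atp6v0c -0.136 to 0.089, Atp6v0e -0.084 to 0.050, Atp6v1d -0.091 to 0.008, Atp6v1e1 -0.116 to 0.076, Atp6v1g1 -0.049 to 0.046 and Atp6ap1 -0.017 to 0.298 (lowest to highest log2 fold change). The median levels, 53.6 FPKM for hydrolases and 38.0 FPKM for V-ATPase genes, were 76.2 and 89.4 CPM per kilobase of the principal transcript. The cause of these moves was not tested, apart from the length in the last case. With 4 libraries a group, differences smaller than the distance from an estimate to the end of its interval were not resolved from 0.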

Other observations

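A pair of further genes, chosen after their values were seen, had libraries far from the rest. Sgsh, the sulfamidase of heparan sulfate breakdown, was at 74.5, 73.8, 82.5 and 61.4 CPM in ND 1 to ND 4 and 58.5, 20.9, 76.9 and 71.8 CPM in HCD 1 to HCD 4, so HCD 2 alone was low. Vps26a, a retromer subunit, was at 106, 64.1, 123 and 108 CPM in ND 1 to ND 4 and 132, 59.4, 116 and 58.8 CPM in HCD 1 to HCD 4, with ND 2, HCD 2 and HCD 4 between 58.8 and 64.1 CPM and the other 5 libraries at 106 CPM or above. HCD 2 was low for both genes, and none of these libraries was among the low ones of Vma21 (ND 1 and ND 3).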
